A study of Mus musculus with 2 samples.

Results

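Voltage-gated calcium channel genes were followed in the hearts of mice lacking Med1, a subunit of the Mediator complex, in cardiomyocytes. The 10 genes were chosen by symbol and role, with earlier results of these data known. All 10 were found among the 22882 gene symbols of the deposited files, each on 1 row. They encode 5 pore subunits (Cacna1c, Cacna1d, Cacna1s, Cacna1g and Cacna1h), 3 beta subunits (Cacnb1, Cacnb2 and Cacnb3), the alpha2delta subunit Cacna2d1 and Rrad, a small GTPase that inhibits the channel. The control library was made from pooled heart RNA of 5 Med1fl/fl mice, which carry the loxP-flanked Med1 allele, and the knockout library from pooled RNA of 5 csMed1-/- mice, in which the same allele is cut by Cre under the α-MyHC promoter. All mice were 23 days old, untreated, of both sexes and on the C57BL6/J background. RNA came from heart tissue with all its cell types, so cells in which this promoter is silent kept Med1, and no control carrying Cre without the floxed allele was analysed here. Each genotype is 1 library, so no value has a replicate, no test between genotypes was possible, and every difference between these libraries is given as a plain ratio of FPKM, fragments scaled to transcript length and to library size. Genes were compared if neither library listed them at 0 and the higher of the 2 values reached 1 FPKM, which left 10489 genes, and a difference was counted when it was past 2-fold.

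Calcium enters the cardiomyocyte mainly through the L-type channel, whose pore in the ventricle is the product of Cacna1c. Beta subunits dock on the intracellular loop between the first and the second repeat of the pore and help to bring the channel to the membrane, the alpha2delta subunit lies on the outside, and the current triggers calcium release from the sarcoplasmic reticulum through the ryanodine receptor. T-type channels, encoded by Cacna1g and Cacna1h, open at more negative potentials, need no beta subunit and are known from pacemaker tissue and the fetal heart. Cacna1s and Cacnb1 encode the pore and the beta subunit of the skeletal muscle channel, whereas Cacnb2 is the main beta subunit gene of the adult heart. Rrad encodes Rad, which binds beta subunits and restrains the L-type current until adrenergic signaling releases it.

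The docking stretch for the beta subunit is shown first, because it separates the pore genes that use a beta subunit from those that do not. It was found by translating the longest coding transcript of each pore gene (GENCODE M21, GRCm38) and searching for the conserved docking motif. Of the 5 pore genes, 3 held it, each in 54 coding bases. In Cacna1c it lies in exon 9 (chr6:118734906-118734959, minus strand), in Cacna1d in exon 9 (chr14:30142600-30142653, minus strand) and in Cacna1s in exon 8 (chr1:136076791-136076844, plus strand). Neither Cacna1g nor Cacna1h held a match. Capitals mark the 38 bases that the 3 genes share.
Cacna1c: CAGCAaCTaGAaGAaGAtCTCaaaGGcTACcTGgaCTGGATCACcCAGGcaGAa
Cacna1d: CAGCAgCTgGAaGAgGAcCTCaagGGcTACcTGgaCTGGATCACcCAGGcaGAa
Cacna1s: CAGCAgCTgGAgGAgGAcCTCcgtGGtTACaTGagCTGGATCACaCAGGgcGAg
Cacna1c and Cacna1d had 49 of the 54 bases in common, and Cacna1c and Cacna1s had 38.

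In control heart the order of the member genes by FPKM was Rrad, Cacna1c, Cacna1g, Cacnb2, Cacna1h, Cacnb1, Cacnb3, Cacna1s, Cacna2d1 and Cacna1d, from 227.7 to 0.151 FPKM. In csMed1-/- heart Rrad was still the highest at 49.2 FPKM, but Cacnb1 and Cacnb3 followed it and stood above Cacna1c. FPKM is scaled to transcript length, but levels of different genes compare only roughly. Actc1, a cardiomyocyte marker, was even listed at 0 in control heart against 9189 FPKM in csMed1-/- heart. No replicate shows which neighbours in either order truly differ. The same limits hold for the shares and ratios between genes given below. Of the 10 genes, 9 passed the filter and Cacna1d, at 0.151 and 0.0821 FPKM, did not. Among the 9, 5 were past 2-fold lower in csMed1-/- heart (Cacna1c, Cacna1s, Cacna1g, Cacnb2 and Rrad), against 18.0% of all compared genes, and 3 were past 2-fold higher (Cacnb1, Cacnb3 and Cacna2d1), against 13.6%. Cacna1h stayed within 2-fold. Cacna1s and Cacna2d1 reached 1 FPKM in only one library, the one in which each was higher, and passed the filter through it alone. At 1 FPKM or more in both libraries, 4 of 7 members were past 2-fold lower, against 14.7% of the genes compared in that way, and 2 were past 2-fold higher, against 11.3%. Past 4-fold, 2 members were lower (Cacna1s and Rrad), against 5.14% of compared genes, and 1 was higher (Cacnb1), against 4.32%. The median log2 ratio of the 9 members was -1.06, and that of all compared genes was -0.07. Cacna1s and Cacnb1 were singled out by the study from these same libraries, so their direction in these values is not independent evidence. For Cacnb1 the paper also gave qPCR, higher in csMed1-/- heart but with a smaller ratio than by sequencing. Without Cacna1s and Cacnb1, 4 of 7 members were lower and 2 higher. In bulk heart RNA, fewer cells of a type and less RNA per cell cannot be told apart.

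**Figure D1:**
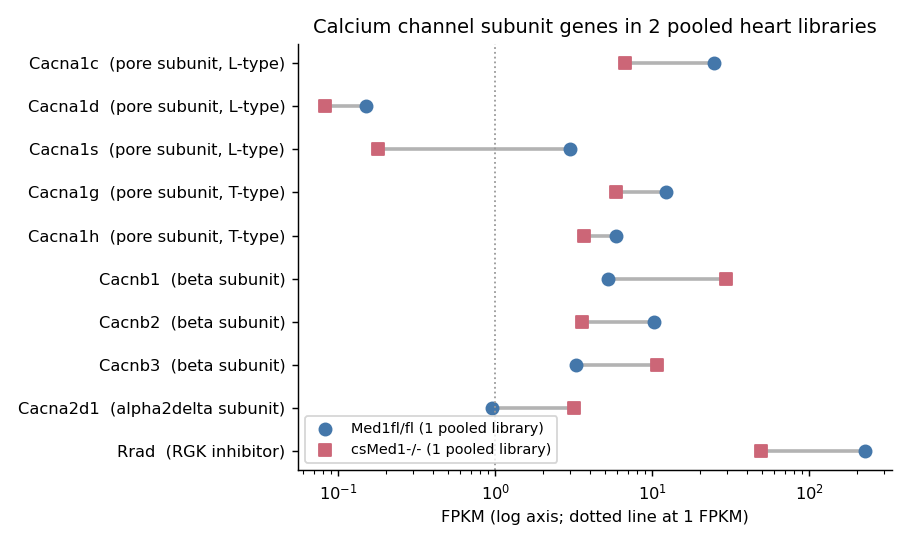
FPKM of the 10 member genes on a log axis in the Med1fl/fl library (blue circles) and the csMed1-/- library (red squares), with a grey bar joining the values of a gene and a dotted line at 1 FPKM. The 5 pore genes, of which Cacna1d was below the filter, Cacnb2 and Rrad were lower in csMed1-/- heart. Cacnb1, Cacnb3 and Cacna2d1 were higher.

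Each pore gene that passed the filter was below control in csMed1-/- heart, and 3 of them were past 2-fold lower, against 18.0% of all compared genes. The median compared gene was slightly below control as well, at a log2 ratio of -0.07. Cacna1c (chromosome 6, 118587240 to 119196418, minus strand) was at 24.7 FPKM in the Med1fl/fl library and at 6.68 in the csMed1-/- library. It was thus 3.70-fold lower, a log2 ratio of -1.89, and 5.93% of compared genes had a lower ratio. Cacna1s (chromosome 1, 136052750 to 136119822, plus strand), the skeletal muscle pore gene, had 2.98 FPKM in the control library, against 0.178 in the csMed1-/- library. It was 16.7-fold lower with a log2 ratio of -4.06, the lowest of the members as deposited, and only 0.715% of compared genes had a lower ratio. Because its csMed1-/- value is low, the size of this difference depends on the treatment of low values, and a pseudocount of 1 FPKM brought the log2 ratio to -1.76, above that of Rrad (-2.19). With 1 FPKM required in both libraries Cacna1s was left out, and Rrad had the lowest ratio. Cacna1d (chromosome 14, 30039939 to 30491455, minus strand), an L-type pore gene of sinoatrial and atrial cells, was low in both libraries, with a log2 ratio of -0.87 between its 2 low values.

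The T-type pore genes differed less. Cacna1g (chromosome 11, 94408391 to 94474198, minus strand) was at 12.2 FPKM in the control library and at 5.88 in that of csMed1-/- mice, a log2 ratio of -1.06. That lies close to the 2-fold line, and the gene lay inside it with a pseudocount of 1 FPKM (-0.94) or with ratios centred on their median (-0.99). Cacna1h (chromosome 17, 25374285 to 25433783, minus strand) was at 5.87 and 3.65 FPKM, respectively, a log2 ratio of -0.68. With values of 26.1% for Cacna1h and 16.8% for Cacna1g, the share of compared genes with a lower ratio was larger for both than for Cacna1c. The exons of Cacna1d and Cacna1h overlap coding genes on the opposite strand, Chdh and Tpsg1, but Chdh had at most 0.00618 FPKM and Tpsg1 at most 0.0229 FPKM in these libraries. Exons of Cacna1s, Cacnb1, Cacnb2 and Rrad overlap non-coding genes or a pseudogene on the opposite strand, whose levels were not looked up.

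Summed over the 5 genes, the pore genes reached 45.9 FPKM in the control library and 16.5 in the csMed1-/- library. The 3 L-type genes made up 60.6% of this sum in control and 42.1% in csMed1-/- heart, and the T-type genes 39.4% and 57.9%. Cacna1c alone held 53.8% and 40.5%, Cacna1g 26.6% and 35.7%, Cacna1h 12.8% and 22.2%, and Cacna1s 6.48% and 1.08%. The larger T-type share came with lower T-type levels, since the T-type sum went from 18.1 to 9.53 FPKM while the L-type sum went from 27.8 to 6.94 FPKM.

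The beta subunit genes did not move in one direction. Cacnb2 (chromosome 2, 14603088 to 14987908, plus strand) went with the pore genes, at 10.2 FPKM in the control library and 3.58 in the csMed1-/- library, a log2 ratio of -1.52. Cacnb1 (chromosome 11, 98001508 to 98023034, minus strand) went the other way, from 5.22 FPKM in the control library to 29.4 in the csMed1-/- library, 5.63-fold higher with a log2 ratio of 2.49, and 2.60% of compared genes lay above it. Cacnb3 (chromosome 15, 98630840 to 98644529, plus strand), a beta subunit gene of brain and smooth muscle, was also higher, at 3.29 and 10.7 FPKM, 3.26-fold higher with a log2 ratio of 1.70. The beta sum was therefore higher in csMed1-/- heart, 43.7 against 18.7 FPKM, while the pore sum was lower.

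In control heart Cacnb2 held 54.6% of the beta FPKM, Cacnb1 27.8% and Cacnb3 17.6%. In csMed1-/- heart Cacnb1 held 67.3%, Cacnb3 24.5% and Cacnb2 8.20%, so the gene with the largest share in control had the smallest. Cacnb1 stood at 0.510 times Cacnb2 in control and at 8.21 times Cacnb2 in csMed1-/- heart. Cacnb4, the remaining beta gene, had 0.0360 and 0.0369 FPKM and its inclusion barely altered these shares.

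**Figure D2:**
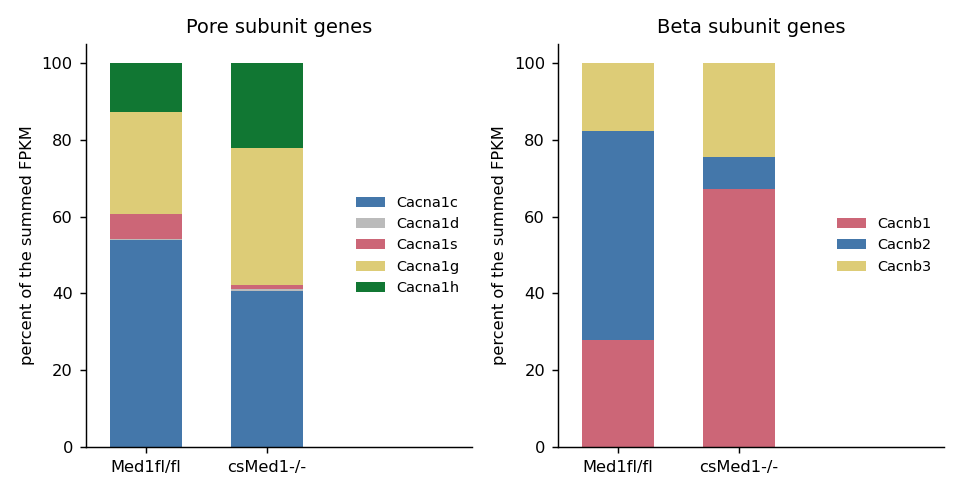
Stacked bars of the share of summed FPKM held by each of the 5 pore genes (left) and 3 beta genes (right) in the Med1fl/fl and csMed1-/- libraries, in percent. The T-type genes Cacna1g and Cacna1h together held 39.4% and 57.9% of the pore sum, and Cacnb1 held 27.8% and 67.3% of the beta sum.

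Cacna2d1 (chromosome 5, 15934691 to 16374511, plus strand) encodes the alpha2delta subunit that the drug gabapentin binds. Its transcript was at 0.950 FPKM in the Med1fl/fl library and at 3.19 in the csMed1-/- library, 3.36-fold higher with a log2 ratio of 1.75. With a pseudocount of 1 FPKM the log2 ratio was 1.10. Relative to Cacna1c in the same library it stood at 0.0384 in control and at 0.478 in csMed1-/- heart, so its transcript was below that of the main pore gene in both.

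Rrad (chromosome 8, 104628070 to 104631327, minus strand) was the most abundant member in both libraries, at 227.7 and 49.2 FPKM. It was 4.63-fold lower with a log2 ratio of -2.21, and 4.08% of compared genes had a lower ratio. The inhibitor gene and the main pore gene differed by similar amounts, and Rrad stood at 9.22 times Cacna1c in control and at 7.37 times in csMed1-/- heart. Against the sum of the beta genes, the binding partners of Rad, the ratio was 12.2 in control and 1.13 in csMed1-/- heart. Against Cacnb2 alone it was 22.3 in control and 13.7 in csMed1-/- heart.

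Ratios of 2 genes within a library do not depend on how the libraries were scaled to each other. The beta sum was 0.673 times the L-type pore sum in control and 6.30 times in csMed1-/- heart, a change of 9.36-fold. For Cacnb2 and Cacna1c, the pair of the adult ventricular channel, the ratio was 0.414 in control and 0.536 in csMed1-/- heart, a change of 1.29-fold. The pair was thus lower together. Behind the larger change of the beta sum to the L-type sum, both sums differed. The L-type sum in csMed1-/- heart was 0.249 times that of control, and the beta sum, through Cacnb1 and Cacnb3, was 2.33 times that of control.

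**Figure D3:**
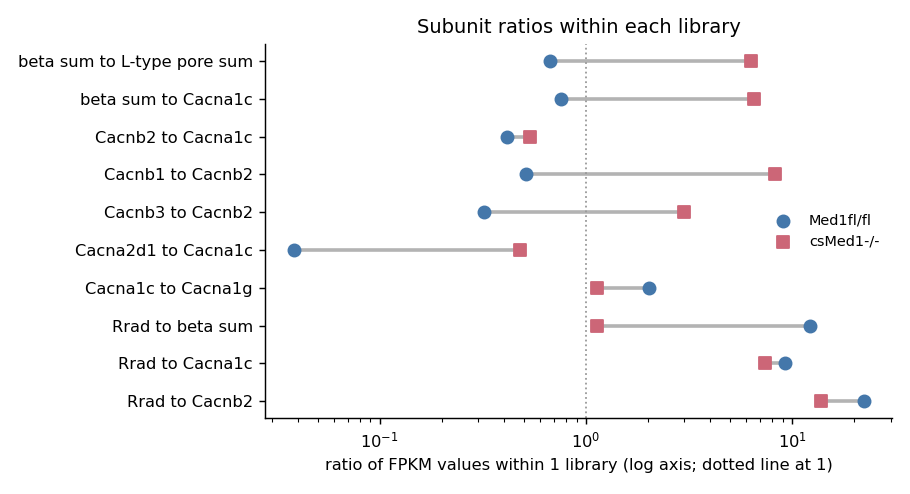
Ratios of FPKM between subunit genes or sums within the Med1fl/fl library (blue circles) and within the csMed1-/- library (red squares), on a log axis with a dotted line at 1. The ratio of the beta sum to the L-type pore sum was 0.673 and 6.30, and that of Cacnb2 to Cacna1c was 0.414 and 0.536.

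**Figure D4:**
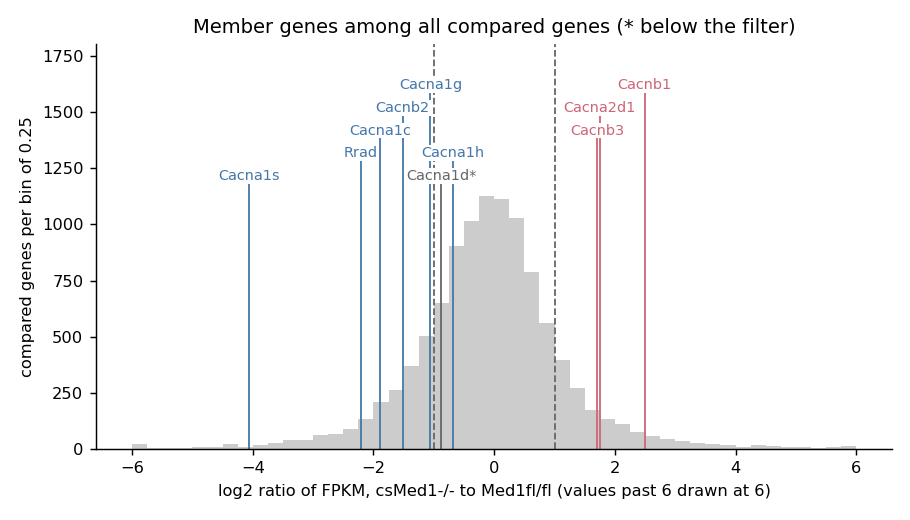
Histogram of the log2 ratio of csMed1-/- to Med1fl/fl FPKM over 10489 compared genes (grey) with the member genes as vertical lines (blue lower, red higher, dark grey with an asterisk for Cacna1d, below the filter) and dashed lines at 2-fold. Cacna1s at -4.06 and Cacnb1 at 2.49 lay farthest out among the members, although with a pseudocount of 1 FPKM Rrad (-2.19) was lower than Cacna1s (-1.76).

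The promoters of Cacna1s and Cacnb1 are shown because these genes had the lowest and the highest ratio of the deposited values, a rank that Cacna1s lost to Rrad with a pseudocount of 1 FPKM or with 1 FPKM required in both libraries. Of the members, 7 had windows in the RefSeq promoter table (GRCm38.p6), 13 windows in all, each with 250 bases before and 50 after a transcript start. Cacna1g, Cacna1h and Rrad had no window and were not searched. Motifs were searched on both strands. The E-box, spelled CANNTG, is bound by muscle bHLH factors such as MyoD. The M-CAT element, spelled CATTCC, is bound by TEAD factors in muscle genes. The GC box, spelled GGGCGG, is bound by Sp1 in many promoters. The half-site spelled AGGTCA is bound by nuclear receptors, the factors through which Med1 is best known to act. The TATA box was searched as TATAAA, and the MEF2 and CArG consensus were searched as well. The Cacna1s window is chr1:136052561-136052860, plus strand, and its capitals mark 2 E-boxes and an M-CAT match on the opposite strand, while 1 GC box is left in lower case. The Cacnb1 window shown, the more upstream of 2, is chr11:98022578-98022877, minus strand, and its capitals mark 5 GC boxes, 1 of them on the opposite strand.
Cacna1s: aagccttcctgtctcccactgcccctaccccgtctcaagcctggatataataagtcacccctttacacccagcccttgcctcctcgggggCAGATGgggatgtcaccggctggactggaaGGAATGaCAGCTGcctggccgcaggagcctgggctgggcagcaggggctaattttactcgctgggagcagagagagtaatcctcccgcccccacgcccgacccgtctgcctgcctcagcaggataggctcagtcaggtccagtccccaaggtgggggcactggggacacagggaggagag
Cacnb1: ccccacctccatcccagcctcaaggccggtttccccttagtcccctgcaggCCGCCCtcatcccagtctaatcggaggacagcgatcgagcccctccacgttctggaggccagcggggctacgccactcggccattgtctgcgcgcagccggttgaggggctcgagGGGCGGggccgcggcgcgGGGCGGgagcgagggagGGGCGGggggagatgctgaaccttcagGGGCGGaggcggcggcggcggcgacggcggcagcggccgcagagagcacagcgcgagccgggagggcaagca
An E-box was found in 72.3% and an M-CAT match in 14.7% of all 32851 windows of this length, and a GC box in 35.7%. The half-site, found in 16.3% of all windows, the MEF2 consensus, found in 1.86%, and the CArG consensus, found in 1.63%, were in none of the 13 member windows. In a longer upstream stretch of Cacna1s, the paper reported a putative response element for PPAR nuclear receptors, found by matrix scoring. The search here used exact spellings in short windows, so it does not bear on that site. The TATA box, found in 13.6% of all windows, was in 1 window of Cacna1d and in no other member window. The GC content was 63.0% for the Cacna1s window and 73.7% for the Cacnb1 window shown. The other Cacnb1 window had 59.3% GC, no GC box and 1 E-box. Among the genes with windows, GC boxes did not separate the directions, since a window of Cacna2d1 held 7 and a window of Cacna1c held 6.

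Beyond the members, 23 further channel genes were listed, the remaining pore, beta and alpha2delta genes, the gamma subunits, the other RGK proteins (relatives of Rad) and the STAC adaptors. Of these, 4 passed the filter, 2 were past 2-fold lower and 1 was past 2-fold higher, against 18.0% and 13.6% of all compared genes. Cacng6, a gamma subunit gene, was at 1.34 and 0.00578 FPKM (log2 ratio -7.86), passing the filter through control alone. Rem1, an RGK gene, had 5.29 and 2.24 FPKM (log2 ratio -1.24), in the same direction as Rrad. Gem, another RGK gene, was at 0.616 and 1.75 FPKM (log2 ratio 1.51), in the opposite direction, passing the filter through csMed1-/- heart alone. Cacng7 (log2 ratio 0.76) stayed within 2-fold. The other 19 genes were below 1 FPKM in both libraries, among them Cacng1, the gamma subunit gene of the skeletal muscle channel, with 0.143 and 0.672 FPKM.

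The proteins that work with the L-type channel at the dyad, where the surface membrane meets the sarcoplasmic reticulum, were followed through a list of 20 genes, of which 19 passed the filter. In csMed1-/- heart 6 were past 2-fold lower, 1 was past 2-fold higher and 12 stayed within 2-fold, against 18.0% lower and 13.6% higher among all compared genes, and the median log2 ratio was -0.20. The lowest ratios were those of Atp2a2 (log2 ratio -3.91), the calcium pump of the sarcoplasmic reticulum, of its regulator Pln (-3.78) and of the ryanodine receptor gene Ryr2 (-3.28). The paper had already reported each of them as lower, from these libraries and by qPCR. The other 3 lower genes were Asph (-1.69), Akap7 (-1.35) and the sodium-calcium exchanger gene Slc8a1 (-1.29). The junctional genes Jph2, with 318.0 and 276.8 FPKM, and Casq2, with 351.0 and 346.6 FPKM, differed little. Other junctional genes, at lower levels, were below control but within 2-fold. They were Jph1, with 1.75 and 1.13 FPKM (-0.63), and Trdn, with 1.57 and 0.813 FPKM (-0.95). The highest ratios were those of Ahnak (2.81), a large scaffold protein that binds the channel's beta subunit, of the calmodulin gene Calm3 (0.99) and of Sri (0.98), which encodes sorcin.

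**Figure D5:**
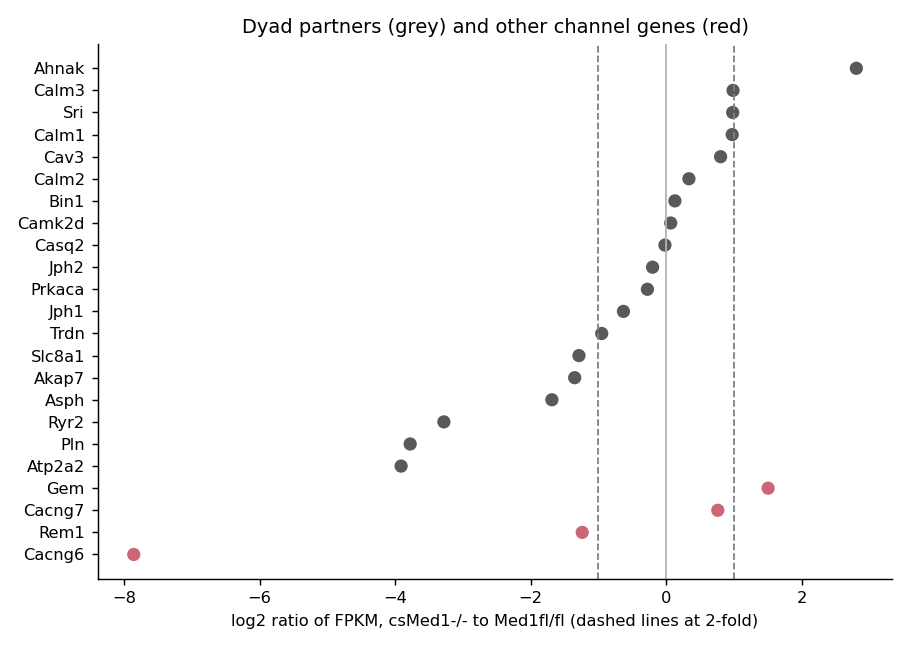
Log2 ratio of csMed1-/- to Med1fl/fl FPKM for 19 dyad partners (grey) and 4 further channel genes (red), 1 point per gene, with dashed lines at 2-fold. Atp2a2, Pln and Ryr2 lay between -3.91 and -3.28, Ahnak at 2.81 and Cacng6 at -7.86.

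The targeted gene Med1 was at 3.38 and 0.412 FPKM, in the direction of its labels. Cardiomyocyte markers defined the tissue in both libraries, with 20467 and 6571 FPKM for Myl2, although 4 of 8 compared markers were past 2-fold lower and none higher, and Actc1 was listed at 0 in control against 9189 FPKM in csMed1-/- heart. Without Actc1, the other 8 markers with a row of their own summed to 53158 and 22386 FPKM. Such an exact 0 was found for 6 genes at 100 FPKM or more in the other library in each direction, and for no member. Those at 0 in control were Actc1, Mb (1040 FPKM in csMed1-/- heart), the joint row of Myh6 and Myh7, and small RNA genes. Those at 0 in csMed1-/- heart were small RNA genes and the ribosomal RNA gene Rn45s.
Skeletal muscle markers, relevant to Cacna1s and Cacnb1, summed to 11.7 and 4.92 FPKM over 9 genes, with Myod1 and Myog at 0 in both and Ryr1 at no more than 0.00858 FPKM. Of its 3 compared genes, 2 were past 2-fold lower and 1 higher. Fibroblast markers summed to 495.2 and 1190 FPKM, with 4 of 7 past 2-fold higher and 3 within 2-fold, namely Col3a1 (log2 ratio 0.66), Pdgfra (-0.02) and Dcn (-0.24). Smooth muscle markers summed to 727.1 and 1067 FPKM, with 3 of 6 lower and 2 higher, and to 722.8 and 444.4 FPKM without Cnn1, which had 4.32 and 622.4 FPKM. Pacemaker and conduction markers, relevant to Cacna1d and Cacna1g, summed to 17.6 and 9.53 FPKM, with 2 of 4 lower, none higher and Isl1 at 0 in both. Atrial markers summed to 477.7 and 11170 FPKM, nearly all of it Nppa, which the paper uses as an indicator of heart failure. Of the 3 compared, Nppa and Myl4 (log2 ratio 2.89) were higher and Myl7 (-0.36) stayed within 2-fold. Sln was below the filter, at 0.356 and 0.174 FPKM. Endothelial markers had 2 of 5 lower, macrophage markers 1 of 4 higher, and neuron and Schwann cell markers 1 of 2 lower and 1 higher. The last list summed to 23.6 and 2.59 FPKM, with most of the control sum from Dbh, which was lower at 22.5 and 0.391 FPKM. Tubb3 was higher, at 0.662 and 1.74 FPKM, passing the filter through csMed1-/- heart alone. All these marker counts stand beside 18.0% lower and 13.6% higher among all compared genes. The part of these markers in the channel gene differences was not tested.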

How the data were processed

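RNA from 5 mouse hearts per genotype was pooled, and 1 library per pool was sequenced as 50 nt single-end reads from polyadenylated RNA with a directional kit. TopHat v2.0.8b (mm10) served for alignment, and the deposited values are FPKM that the authors obtained from Cufflinks v2.1.1 with the UCSC annotation, followed by Cuffdiff. Their processing notes also name Bowtie2, STAR and a count-based test, with no role given. Whether counting used strand, and how libraries were scaled, is not given in the sources used here.

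FPKM values were used as deposited (23424 rows), and rows sharing a symbol, as 412 symbols do, were summed. With 1 library per group, ratios carry no test or error. Read totals were not in the files analysed here, so absolute depth is unknown. Ratios of rows at 0.15 FPKM or less piled up at 0.722, so the csMed1-/- library would be 1.39 times deeper than the control one if FPKM were scaled to mapped reads alone.

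Named genes were all members, further channel genes at 1 FPKM or more and past 2-fold, and the 3 highest and 3 lowest ratios among dyad partners. Asph, Akap7, Slc8a1, Jph1, Jph2, Casq2, Trdn, Cacng1, Cacng7 and the overlapping genes were added after their values were seen. Members and lists were chosen with earlier results of these data known. Alternatives were pseudocounts of 0.1 and 1 FPKM, other filters, 3 scalings, the highest row alone, 1.5-fold and 4-fold thresholds, and members without Cacna1s and Cacnb1. The ratio and call steps were tested on simulated data. Python 3.11.15, numpy 2.4.6, pandas 2.3.3 and matplotlib 3.10.9 were used.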

Additional observations from a re-analysis of the deposited data

How the results depend on the processing

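Filters on low values and the choice of row could not change a member's ratio, and a pseudocount could not turn its sign. Under the 5 pseudocount and scaling settings, 43 of 45 member ratios kept their side of the 2-fold line, and both exceptions were Cacna1g, at -0.94 with a pseudocount of 1 FPKM and -0.99 with ratios centred on their median. The median log2 ratio of the members, which is the value of Cacna1g, was -0.94 and -0.99 under the same settings and -0.97 without a filter on low values, when Cacna1d joined. With a pseudocount of 1 FPKM the member with the lowest ratio was Rrad (-2.19) and not Cacna1s (-1.76). At a 4-fold threshold 2 members were lower and 1 higher. Leaving out genes below 10 FPKM in both libraries raised the median log2 ratio of all compared genes by 0.13, and the scalings moved it by less than 0.1. The shares of Cacnb1 among beta genes and of Cacna1c among pore genes moved by less than 1 percentage point when every beta or pore gene in the files was summed. No paired analysis was possible because each genotype has 1 pooled library, and no library could be left out. The unknown depth leaves counting error unstated, which weighs most on Cacna1d and on the csMed1-/- value of Cacna1s.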

Other observations

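Cacnb1 lies on the same chromosome as the targeted gene, 129.1 kb from Med1 (chromosome 11, 98152154 to 98193293, GENCODE M21, GRCm38). The coding genes within 500 kb of Med1 were therefore listed, a choice made after the values were seen. Of 33 such genes in the files 21 passed the filter, 3 were past 2-fold lower and 4 past 2-fold higher, beside 18.0% and 13.6% of all compared genes, and the median log2 ratio was 0.41, beside -0.07 over all compared genes. Cacnb1, for which the window was chosen, is itself among the 4 higher genes and enters the median. With so few genes the counts do not differ clearly from those shares, and an effect of the region was not tested. The higher genes, with their log2 ratios, were Cacnb1 (2.49), Ormdl3 (1.43), Pcgf2 (1.39) and the proteasome gene Psmb3 (1.02). The lower genes were Pnmt, which encodes the enzyme that makes adrenaline, with 1.66 and 0.414 FPKM, the Z-disc gene Tcap (log2 ratio -1.79) and Plxdc1 (-1.41). The direct neighbours of Med1 stayed within 2-fold, with 1.69 and 2.68 FPKM for Fbxl20 and 1.02 and 0.761 FPKM for Cdk12 in control and csMed1-/- heart. Rpl19, next to Cacnb1, had 996.5 and 1576 FPKM (log2 ratio 0.66). Stac2, a further gene of the channel lists in this window, was at 0.174 and 0.223 FPKM.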
